A study of Mus musculus with 8 samples.

Results

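Regulators of G protein signalling, the RGS proteins, were followed here as a set of 10 mouse genes, Rgs2, Rgs3, Rgs4, Rgs5, Rgs10, Rgs12, Rgs14, Rgs16, Rgs17 and Rgs19. The members were found as the non-control probes whose gene name on the array equals a member's symbol, which gave 18 probes for the 10 genes, out of 21304 genes named on the array. Of the 10 genes, 8 gave enough signal to be tested, and 4 of these 8 differed between the groups. Rgs2, Rgs4 and Rgs5 were lower in satellite cells of injured muscle, Rgs12 was higher, and Rgs3, Rgs10, Rgs16 and Rgs19 did not pass the test. Rgs14 and Rgs17 gave too little signal to be tested.

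Satellite cells are the resident stem cells of skeletal muscle, quiescent in resting muscle and activated by damage. Here they were sorted by flow cytometry for integrin alpha 7 and against CD31, CD45, CD11b and Sca1, from basal muscle (4 samples) or from muscle 3 days after injury with cardiotoxin (4 samples), a membrane-damaging peptide from cobra venom that kills myofibres. All 8 samples are labelled as biological replicates from male C57BL/6 mice aged 3 months. The names given in the deposited data mark both groups as WT, wild type, and no genetic change is named. Each sample was put on 1 array with Cy3 label. The labels do not say whether animals were pooled, so the p-values below measure the spread between these samples.

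A G protein-coupled receptor activates its G protein by making the alpha subunit exchange GDP for GTP, after which the alpha subunit and the beta-gamma pair act on effectors such as adenylyl cyclases, phospholipases and ion channels. RGS proteins end the signal: their shared RGS domain speeds up GTP hydrolysis by the alpha subunit. The R4 proteins (Rgs2, Rgs3, Rgs4, Rgs5 and Rgs16 here) mostly consist of little more than that domain, though Rgs3 also has long forms. The R12 group (Rgs10, Rgs12 and Rgs14) includes large scaffold proteins, and the RZ group (Rgs17 and Rgs19) carries a cysteine string. Most act on Gi and Gq alpha subunits, and Rgs2 is known for its preference for Gq.

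Array values are log2 signals relative to the 75th percentile of the same array, so 0 is the level of that percentile and 1 unit is a doubling. Levels of different probes are not comparable with each other. Across the arrays 50.15 to 56.74% of spots were well above background and 0 were saturated; the dimmest probe above background lay between -3.51 and -2.81. Over the 13457 genes tested, arrays correlated at 0.936 to 0.968 within the basal group, at 0.985 to 0.992 within the injured group and at 0.794 to 0.895 between groups. All basal arrays lay on 1 slide and all injured arrays on another, so slide and injury cannot be told apart. The labelled sex and the sex-linked transcripts disagree on several arrays. The injured samples 2, 3 and 4 had no signal above background for the Y-linked genes Ddx3y, Eif2s3y, Kdm5d and Uty and had Xist, the transcript of the inactive X chromosome, at 6.37, 6.55 and 6.57, although they are labelled male. The basal samples 1 and 2 and the injured sample 1 had both Y-linked signal and Xist, at 3.85, 2.15 and 1.72. The basal sample 3 had both too, with Xist much lower, at -1.12, and it was left out alone but not in the joint set. The member differences and the list counts or medians below are therefore also given with samples left out. These are the injured samples 2 to 4 and, separately, the basal samples 1 and 2. Leaving out 3 injured samples leaves only the injured sample 1, which itself had both Y-linked signal and Xist. Its spread is then assumed to be that of the basal group. Far fewer of all genes are called in that fit. Fewer calls in a list without the injured samples 2 to 4 are therefore no result about that list.

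The sequences that carry the results are those of the probes for the 4 genes that differed, since 3 of these genes have more than 1 probe and the probes can be set against each other. Each line gives 30 of the 60 bases of a probe, 5' to 3', as the array files list them. The capitals mark AATAAA, the common polyadenylation signal, which is held by 4 of the 18 member probes (22.2%) and by 10.1% of all 55681 probes. The genomic position after each name is that of the whole probe on mouse build mm9, as the array files give it. Exon and untranslated region boundaries of that build were not used here.
Rgs2, brighter probe, chr1:145848830-145848889, minus strand: atcctcggttcttggagtccgaattctacc
Rgs2, dimmer probe, chr1:145847227-145847286, minus strand: ctatttgccaaaagaaatagtctttatgac
Rgs4, brighter probe, chr1:171672488-171672547, minus strand: tcatgaactgcaaagccctctttggttttc
Rgs4, dimmer probe, chr1:171671609-171671668, minus strand: atgatgacagtaAATAAAtgcttcctacaa
Rgs5, chr1:171623021-171623080, plus strand: agagtaccgctgtgttatctggacattctc
Rgs12, brighter probe, chr5:35376032-35376091, plus strand: ttcttccaagagaAATAAActctagagctc
Rgs12, dimmer probe, chr5:35374884-35374943, plus strand: tgtctccatggtgcaagagggcactacaca

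Rgs2, Rgs4, Rgs5 and Rgs16 all lie on chromosome 1, and Rgs4 and Rgs5 are neighbours with 0 protein-coding genes between them in the RefSeq gene table. The 250 bases before the transcription start of these 4 R4 genes are shown because 3 of the 4 genes were lower after injury. They come from RefSeq on build GRCm38.p6, which is not the build of the probe positions, and run 5' to 3' along the gene's strand. The capitals mark CCAAT and TGACG, a common promoter box and the core of the cyclic AMP response element, searched on both strands (ATTGG and CGTCA on the other); the motifs do not overlap here.
Rgs2 promoter, chr1:144004150-144004399, minus strand: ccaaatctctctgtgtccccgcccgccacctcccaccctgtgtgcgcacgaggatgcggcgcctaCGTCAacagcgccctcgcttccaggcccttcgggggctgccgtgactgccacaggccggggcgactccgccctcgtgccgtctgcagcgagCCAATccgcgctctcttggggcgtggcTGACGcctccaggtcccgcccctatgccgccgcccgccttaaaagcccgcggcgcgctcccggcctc
Rgs4 promoter, chr1:169747643-169747892, minus strand: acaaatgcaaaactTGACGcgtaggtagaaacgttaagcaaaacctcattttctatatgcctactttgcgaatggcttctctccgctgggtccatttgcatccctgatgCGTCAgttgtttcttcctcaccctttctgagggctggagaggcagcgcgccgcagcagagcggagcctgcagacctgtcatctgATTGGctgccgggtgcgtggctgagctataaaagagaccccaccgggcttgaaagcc
Rgs5 promoter, chr1:169655251-169655500, plus strand: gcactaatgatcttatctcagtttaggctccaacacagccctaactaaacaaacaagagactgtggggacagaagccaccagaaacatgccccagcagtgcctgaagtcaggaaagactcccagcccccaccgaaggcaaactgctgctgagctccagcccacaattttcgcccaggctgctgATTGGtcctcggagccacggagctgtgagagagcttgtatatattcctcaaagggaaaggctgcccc
Rgs16 promoter, chr1:153740103-153740352, plus strand: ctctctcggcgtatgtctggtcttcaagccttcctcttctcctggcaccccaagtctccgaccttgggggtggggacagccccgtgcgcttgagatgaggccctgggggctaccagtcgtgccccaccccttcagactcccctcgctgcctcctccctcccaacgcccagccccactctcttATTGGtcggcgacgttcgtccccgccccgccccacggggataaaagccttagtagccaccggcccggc
RefSeq gave 13 promoters for 9 members and none was matched for Rgs14. CCAAT was found in 4 of the 13, those printed, 94 bases before the start in Rgs2, 57 in Rgs4, 67 in Rgs5 and 68 in Rgs16. Among all 32851 promoters of this length 33.8% hold it. TGACG was found in 3 member promoters, of Rgs2, Rgs4 and Rgs12, against 17.8% of all. TATAAA was searched as well and found in 3, 1 of Rgs4 and 2 of Rgs3, against 12.4% of all, and it lies 31 bases before the start in Rgs4. Rgs16 shares the CCAAT box with the other 3 genes and did not pass the test. These matches describe the sequence and do not show that a factor binds.

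Taken as a set, the members did not differ more often than other genes. By limma's moderated test with Benjamini-Hochberg adjustment over all genes tested and a threshold of 0.05, 3 of the 8 tested members were lower after injury, against 24.7% of all genes tested, and 1 was higher, against 35.4% of all. In all, 4 of 8 were called, against 60.2% of the 13457 genes. The basal and injured values did not overlap for those same 4 members, against 57.2% of all genes tested. The median log2 difference, injured minus basal, was -0.28 over the 8 members and 0.17 over all genes tested. All 3 members that fell are R4 genes (3 of 5 tested), and the member that rose is an R12 gene (1 of 2 tested).

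**Figure D1:**
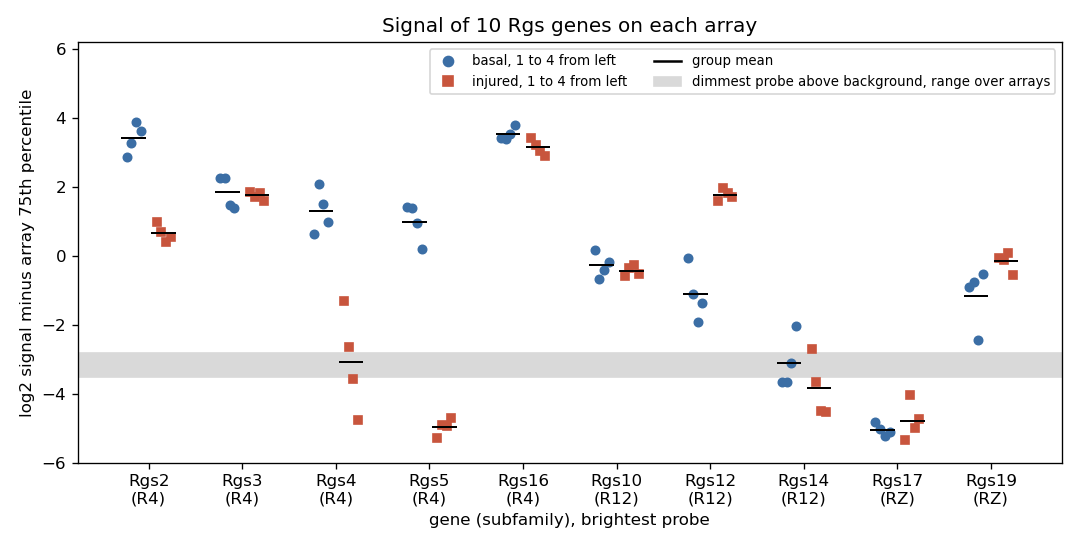
Log2 signal minus the array's 75th percentile (vertical axis) for the brightest probe of each of the 10 genes on each array, with basal samples as circles, injured samples as squares and group means as bars; the grey band is the range of the dimmest probe above background, -3.51 to -2.81. Rgs2, Rgs4 and Rgs5 are separated downwards and Rgs12 upwards, while Rgs17 lies under the band on every array.

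Among the R4 genes, Rgs5, which is widely used as a marker of pericytes, was at background in every injured sample. Its log2 signal in the basal samples 1 to 4 was 1.42, 1.38, 0.96 and 0.21. In the injured samples 1 to 4 it was -5.29, -4.92, -4.93 and -4.70. All basal arrays were above background and no injured array was, so the groups were far apart and the injured level is only an upper bound. Rgs5 was at least 18.2-fold lower in injured samples, the basal mean being set against the dimmest signal above background on each injured array. The measured log2 difference was -5.95 ± 0.27 (moderated SE, n = 4 per group, adjusted p = 2.6e-06 by limma), a size set in part by the background level of the injured arrays. It was -2.41 with normexp background correction, where Rgs2 gave -2.42 and Rgs4 -2.19, so these 3 genes have no settled order of size. With the processed signal it was -6.28 without the injured samples 2 to 4 (adjusted p = 0.00563) and -5.55 without the basal samples 1 and 2 (adjusted p = 1.4e-05). The array holds 1 probe for Rgs5. In bulk RNA such as this, fewer cells of a type and less RNA per cell cannot be told apart.

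Rgs4, also known from vascular mural cells and from neurons, was lower on both of its probes. Its brighter probe read 0.65, 2.08, 1.52 and 1.00 in the basal samples 1 to 4. In the injured samples 1 to 4 it read -1.30, -2.64, -3.57 and -4.77. The groups did not overlap, but the injured samples were widely spread (SD 1.47, against 0.62 in the basal group), and the probe was above background in the injured samples 1 and 2 only. The log2 difference was -4.38 ± 0.67 (20.8-fold, adjusted p = 7.0e-04, limma), partly from values at background. The dimmer probe, 879 bases away, read -1.17, 0.36, -0.85 and -1.33 in the basal samples and -2.91, -4.90, -4.95 and -4.65 in the injured samples, where it was above background in sample 1 alone. Its log2 difference was -3.61 ± 0.53 (adjusted p = 6.1e-04, limma fit over all probes). On both probes the injured sample 1 was the highest of its group. Without the injured samples 2 to 4 the difference of the brighter probe was -2.61 (adjusted p = 0.0430), and without the basal samples 1 and 2 it was -4.33 (adjusted p = 0.00429). In the authors' deposited table it was -1.77 and did not pass (adjusted p = 0.0720, limma).

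Pericyte and smooth muscle markers were also lower, beside Rgs4 and Rgs5. Of 12 such markers, with Rgs4 and Rgs5 left out of the list, 8 fell, 0 rose and 4 did not pass. Their median log2 difference was -1.02. Over all genes tested 24.7% fell and 35.4% rose, and the other marker counts below are to be read against these shares too. The 4 that did not pass, Cspg4, Tagln, Myh11 and Higd1b, were above background on every array. Their log2 differences were -0.37, -0.20, -0.64 and 0.26. Vtn, Abcc9, Pdgfrb and Kcnj8 were not above background on any injured array. Vtn, the vitronectin gene, lay between 0.12 and 1.07 over the basal arrays and between -5.06 and -4.39 over the injured arrays, at least 15.7-fold lower. Abcc9 and Kcnj8, the subunits of a vascular potassium channel, were at least 7.75-fold and 1.55-fold lower, and Pdgfrb, the receptor for platelet-derived growth factor, at least 3.78-fold lower.

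The 3 markers of that list with the most signal were above background on every array. Notch3 fell by 2.61 on the log2 scale and Acta2, smooth muscle actin, by 1.03. Mcam fell by 0.32, but the authors' deposited table gave it the opposite sign. The summed linear signal of the list was 1221 to 1402 times the 75th percentile over the basal arrays and 938.7 to 1074 times over the injured arrays, most of it from Mcam. Without the injured samples 2 to 4, 6 of the 12 fell, and without the basal samples 1 and 2, 7 fell and 1 rose. The authors' deposited table gave 4 lower. The part of these cells in the Rgs4 and Rgs5 results was not tested.

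Markers of other cells the sort could hold were examined in the same way. Schwann cell and glial markers fell in 5 of 6 tested genes, and their sum was 69.47 to 92.4 over the basal arrays and 15.89 to 18.75 over the injured arrays. Most of that sum is Pmp22 over the basal arrays and Egfr over the injured arrays, which fell by 3.27 and 0.87. Cdh19 was not above background on any array. The count that fell was 5 without the basal samples 1 and 2, and 2 without the injured samples 2 to 4. Fibro-adipogenic progenitor markers fell in 4 of 7, with sums of 44.14 to 66.99 and 10.08 to 13.81; 4 and 3 fell with those samples left out. Most of the fibro-adipogenic sum is Col3a1, which fell by 2.74, and Pdgfra was not above background on any array. Endothelial markers fell in 2 of 10 and rose in 1, with sums of 23.56 to 49.47 and 10.36 to 12.56. Tek fell by 4.69 and Cldn5 by 1.16, and Kdr rose by 0.39. Most of the endothelial sum is Tek in the basal samples 3 and 4 and Kdr over the injured arrays. The basal samples 1 and 2 stood apart on this list, although CD31, the product of Pecam1, was gated against: Pecam1 read 3.20 and 2.87 there and -2.20 and -3.22 in the basal samples 3 and 4. Without the basal samples 1 and 2, 2 endothelial markers rose and 1 fell, with a median log2 difference of -0.22 in place of -1.66, and without the injured samples 2 to 4, 1 fell. Leukocyte markers rose in 3 of 9 and fell in 1, with sums of 46.87 to 51.48 and 40.9 to 43.69. Most of that sum is Csf1r, which fell by 0.30. Laptm5 rose by 3.97 and Tyrobp by 1.99, from basal groups above background on 1 and 2 arrays, and Cd3e rose by 0.37. Csf1r and Tyrobp both have the opposite sign in the authors' deposited table, which called 1 of the 9 higher and 0 lower. Again 3 leukocyte markers rose and 1 fell without the basal samples 1 and 2, and without the injured samples 2 to 4 none was called. Satellite cell markers fell in 7 of 11 and rose in 2, with sums of 256.7 to 352.1 and 116.9 to 145.6; 7 and 5 fell, and 2 and 0 rose, with the same samples left out. With all samples, the 2 that rose were Itga7, the gene of the sorted integrin, by 1.13, and Myod1, by 0.77. Of the 7 that fell, Calcr, Chodl, Pax7 and Cd34 had log2 differences of -6.9, -6.76, -2.95 and -2.85. Those of Megf10, Sdc4 and Vcam1 were -2.27, -1.86 and -0.75, and Vcam1 had the opposite sign in the authors' deposited table. Calcr, like Rgs5, was above background on all basal arrays and on no injured array, and was at least 32.9-fold lower. Cdh15 and Des did not pass. Myf5 was not above background on any array. The share of these differences in the Rgs results was not tested.

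**Figure D2:**
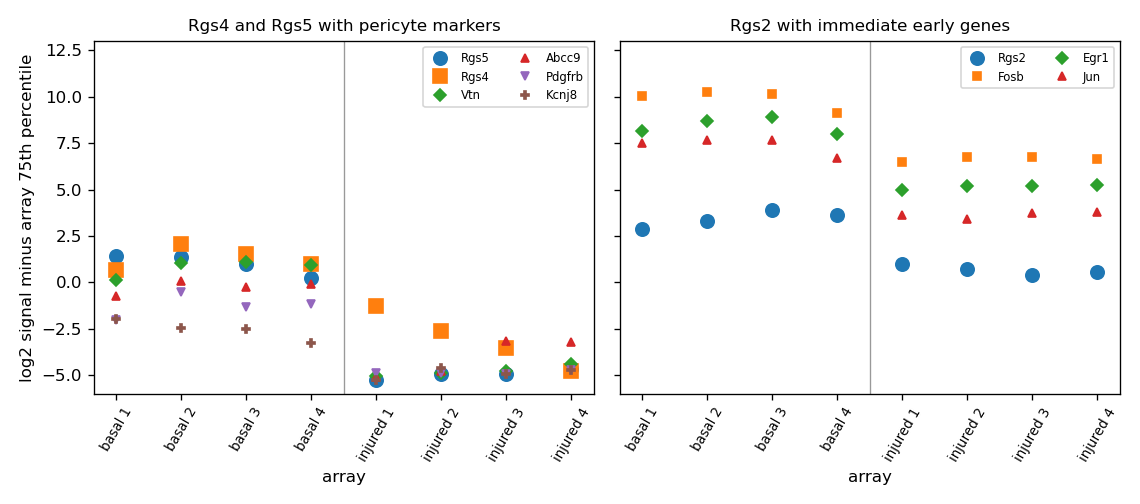
Log2 signal minus the array's 75th percentile (vertical axis) on each of the 8 arrays (horizontal axis). Rgs5 and Rgs4 are shown with 4 pericyte markers on the left and Rgs2 with 3 immediate early genes on the right. The 4 pericyte markers are those of the list of 12 that were not above background on any injured array. Their likeness to Rgs5 in the injured samples follows from that choice. The rest of the list was above background on every array, and 4 of the 12 did not pass. Rgs5 and Vtn lie between 0.12 and 1.42 in basal samples and at or under -4.39 in injured samples. Rgs2, Fosb, Egr1 and Jun are each lower in the injured samples. Within the basal group Rgs2 is lowest in sample 1 and the other 3 genes in sample 4.

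Rgs2, which is itself induced as an early response gene in many cells, was lower on each of its 2 probes. The brighter probe read 2.88, 3.29, 3.89 and 3.63 in the basal samples 1 to 4 and 1.00, 0.69, 0.41 and 0.55 in the injured samples. The groups did not overlap, and every array was above background. The log2 difference was -2.76 ± 0.23 (6.79-fold, adjusted p = 3.9e-05, limma). The dimmer probe, 1603 bases away, read -2.40, -0.68, -0.27 and -1.06 in the basal samples and -5.19, -4.81, -4.80 and -4.33 in the injured samples. It was above background on all basal arrays and on no injured array, so it was at least 4.25-fold lower (measured log2 difference -3.68 ± 0.43, adjusted p = 1.9e-04 in the limma fit over all probes). Without the injured samples 2 to 4 the brighter probe gave -2.42 (adjusted p = 0.0298), and without the basal samples 1 and 2 it gave -3.10 (adjusted p = 3.3e-05).

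Immediate early genes, which rise within minutes of a stimulus and also during tissue dissociation, moved the same way as Rgs2. All 16 genes of the list fixed for them were lower in injured samples, with a median log2 difference of -3.90. The summed signal of the list was 1218 to 2588 times the 75th percentile over the basal arrays and 168.1 to 192.2 times over the injured arrays. The 3 with the most signal were Fosb and Jun, both subunits of the AP-1 factor, and Egr1, a zinc finger factor. Fosb fell by 3.24, Egr1 by 3.31 and Jun by 3.75 on the log2 scale. Within the basal group these 3 were lowest in sample 4, at 9.13, 8.02 and 6.70. Rgs2 was lowest in the basal sample 1, at 2.88, and read 3.63 in the basal sample 4. Of the 16, 15 were lower without the injured samples 2 to 4 and 16 without the basal samples 1 and 2. The part of dissociation in the Rgs2 result was not tested.

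Rgs16 and Rgs3, the other R4 genes, did not pass the test. Rgs16, known as an inducible regulator in lymphocytes and liver, read 3.42, 3.41, 3.54 and 3.80 in basal samples and 3.42, 3.23, 3.06 and 2.89 in injured samples. The values met at 3.42 and the injured samples were otherwise lower. The log2 difference was -0.39 ± 0.16, with a 95% interval of -0.75 to -0.03 and an adjusted p of 0.0585 (limma). This is close to the threshold: 8 of 23 alternative settings called Rgs16 lower, among them all 4 other scalings of the scanner signal. The authors' deposited table gave it the opposite sign, at 0.53 (adjusted p = 0.274, limma). Without the basal samples 1 and 2 it passed, at -0.52 (adjusted p = 0.0440), and without the injured samples 2 to 4 it was -0.12 (adjusted p = 0.792).

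Rgs3, which has long and short forms, has 3 probes. The brightest read 2.25, 2.27, 1.49 and 1.39 in basal samples and 1.87, 1.71, 1.84 and 1.60 in injured samples, all injured values lying inside the basal range. Its log2 difference was -0.09 ± 0.23 (95% interval -0.62 to 0.43, adjusted p = 0.737, limma), and that of the second probe, on the same transcript, was -0.03 ± 0.40 (adjusted p = 0.955). The probe with the least signal, for another transcript and 42431 bases away, was not above background on any array. Without the basal samples 1 and 2, which read highest, the difference of the brightest probe was 0.32 (adjusted p = 0.0788). It was 0.02 without the injured samples 2 to 4 (adjusted p = 0.978).

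Among the R12 genes, Rgs12, a large scaffold protein that also binds Ras and mitogen-activated kinases, was higher after injury. Its brighter probe read -0.06, -1.11, -1.91 and -1.36 in the basal samples 1 to 4 and 1.61, 1.97, 1.84 and 1.71 in the injured samples. The groups did not overlap, and the injured samples lay closely together. The log2 difference was 2.89 ± 0.35 (7.42-fold, adjusted p = 2.0e-04, limma). The dimmer probe, 1148 bases upstream on the same transcript, read -0.15, -0.86, -0.03 and -1.46 in basal samples and 0.17, 0.47, 0.36 and 0.18 in injured samples. Its log2 difference was 0.92 ± 0.30 (adjusted p = 0.0294), in the same direction and smaller than that of the brighter probe. Another probe, starting 104 bases downstream of the brighter one, was not above background on any array.

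The size of the Rgs12 change thus depends on the probe, and the mean over its 3 probes gave 1.50 (adjusted p = 5.9e-04). Without the injured samples 2 to 4 the difference of the brighter probe was 2.71 and did not pass (adjusted p = 0.0581). Without the basal samples 1 and 2 it was 3.42 (adjusted p = 2.5e-05).

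**Figure D3:**
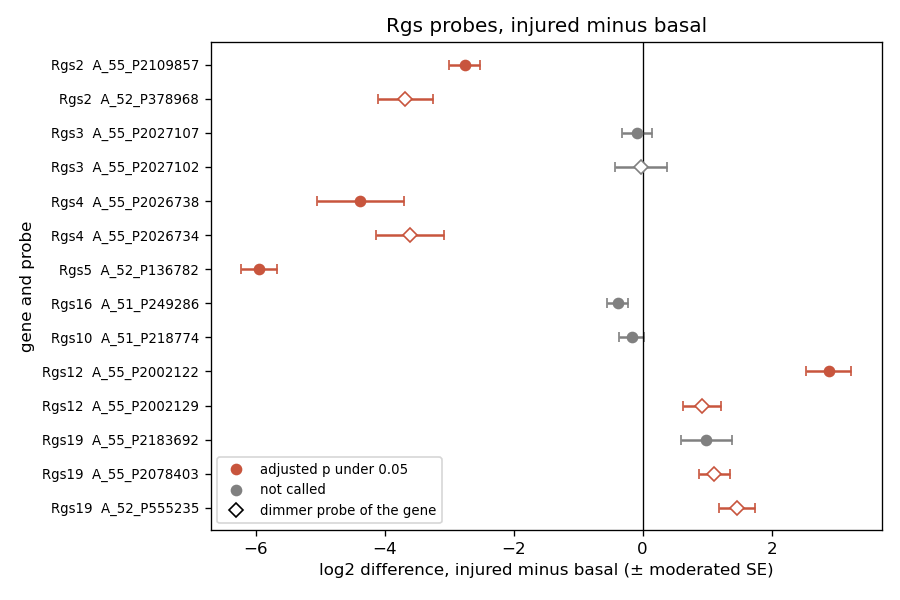
Log2 difference, injured minus basal (horizontal axis), of the 14 Rgs probes tested, with moderated standard errors as bars; filled circles are the brightest probe of a gene, open diamonds its dimmer probes, and red marks an adjusted p under 0.05. Both probes of Rgs2 and of Rgs4 lie on the same side of 0, Rgs12 differs in size between its probes (2.89 and 0.92), and the dimmer probes of Rgs19 are called while the brightest is not.

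The other R12 genes gave no difference that could be called. Rgs10, a small protein best known from microglia and other immune cells, read 0.18, -0.67, -0.40 and -0.18 in basal samples and -0.59, -0.36, -0.27 and -0.52 in injured samples. The injured values all lay inside the basal range, and the log2 difference was -0.17 ± 0.19 (95% interval -0.60 to 0.27, adjusted p = 0.471, limma). It was -0.14 without the basal samples 1 and 2 and -0.33 without the injured samples 2 to 4 (adjusted p = 0.427 and 0.574). Rgs14, a scaffold protein with G protein regulatory motif, was above background in the basal sample 4 and the injured sample 1 only. It read -3.66, -3.67, -3.11 and -2.03 in basal samples and -2.71, -3.65, -4.49 and -4.52 in injured samples, and was not tested.

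Rgs19, the RZ member also called GAIP, did not pass on its brightest probe. That probe read -0.91, -0.76, -2.43 and -0.51 in basal samples and -0.05, -0.12, 0.09 and -0.55 in injured samples. The groups overlapped through the basal sample 4 and the injured sample 4, and the basal sample 3 stood lowest. The log2 difference was 0.99 ± 0.39 (95% interval 0.09 to 1.89, adjusted p = 0.0557, limma). Without the basal sample 3 it was 0.57 and passed (adjusted p = 0.0339). It did not pass without the basal samples 1 and 2, at 1.31 (adjusted p = 0.0536), or without the injured samples 2 to 4, at 1.10 (adjusted p = 0.345). The second probe read -1.23, -1.45, -0.56 and -1.67 in basal samples and 0.14, -0.10, -0.37 and -0.16 in injured samples, with no overlap and a difference of 1.11 ± 0.24 (adjusted p = 0.00465). The dimmest probe, above background on 1 basal and 4 injured arrays, gave 1.47 ± 0.28 (adjusted p = 0.00230). All 3 probes had a higher mean after injury, and 8 of 23 alternative settings called the gene higher.

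Rgs17, the other RZ member, stayed at background in all 8 samples, at group means of -5.05 and -4.78. Its single probe is listed on the plus strand of chromosome 10 while RefSeq places the promoter of the gene on the minus strand, so the probe may not read the Rgs17 transcript.

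By the distance between profiles, the genes most like Rgs5 over the 8 arrays were Cish, Sparcl1, Pxdc1 and Erfe, with Rgs5 at background in all injured samples, at root mean square distances of 0.31, 0.38, 0.42 and 0.43 log2 units between mean-centred values. Their own log2 differences were -5.48, -5.75, -5.57 and -5.54. The genes most like Rgs4 were less close: Nr4a1 at 0.69, Phyhd1 at 0.73, Ddx3y at 0.73 and Pnrc1 at 0.74. Nr4a1 is an immediate early gene of the list above, and Ddx3y is among the Y-linked genes without signal above background in the injured samples 2 to 4.

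The rest of the G protein pathway was read from lists of 120 further genes, of which 119 were on the array and 86 were tested. Of these 86, 23 rose, 29 fell and 34 did not pass, with a median log2 difference of -0.27 against 0.17 over all genes tested. Over all genes tested 60.2% were called, 35.4% higher and 24.7% lower. The count of each list below is to be read against these shares. Without the injured samples 2 to 4, 2 rose and 9 fell, and without the basal samples 1 and 2, 24 rose and 31 fell. The differences named below kept their sign under the 4 other scalings of the scanner signal, while the authors' deposited table turned the sign of 12 of the 52 genes called, among them Adcy7, Akap10, Arhgef1, Arhgef12, Gna15, Gng12, Ric8b and Snx14.

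Among 5 other RGS genes tested, Rgs11, an R7 protein that pairs with the beta subunit Gnb5, fell by 0.67 and the other 4 did not pass; 2 of the 5 fell without the basal samples 1 and 2 and none without the injured samples 2 to 4. Of 8 other proteins with an RGS-like domain, 3 rose and 4 fell. In the authors' deposited table, 1 of the 8 rose and 0 fell, with a median of 0.63 in place of -0.48. Leaving out the basal samples 1 and 2 gave 2 higher and 5 lower, and without the injured samples 2 to 4 none was called. Axin1, the scaffold of the beta-catenin destruction complex, rose by 0.98 (adjusted p = 0.00321, limma). Akap10, an anchor of protein kinase A, fell by 0.96, with 1 of 4 injured arrays above background, and Arhgef12, a guanine nucleotide exchange factor driven by G12 and G13, was at least 1.21-fold lower. Axin2 and the sorting nexin Snx25 rose by 0.80 and 0.57, and Snx14 and Arhgef1 fell by 0.93 and 0.63. Of 9 partners of RGS proteins, 3 rose and 4 fell, the same counts as without the basal samples 1 and 2, and 1 fell without the injured samples 2 to 4. The authors' deposited table gave 3 higher and 1 lower. Gpsm2, which binds Gi alpha subunits in spindle orientation, was not above background in any basal sample and was at least 3.50-fold higher after injury. The measured difference of Gpsm2 was 2.62 (adjusted p = 4.3e-04, limma), set in part by basal values at background. Its relative Gpsm1 fell by 1.95 (adjusted p = 5.7e-05), and Ric8b, a chaperone of Gs alpha subunits, fell by 0.98. Ric8a and Gipc1 rose by 0.95 and 0.96, and Gnb5 and Rgs7bp, partners of the R7 proteins, fell by 0.87 and 0.60.

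Among the G alpha subunits, the direct substrates of RGS proteins, 5 of 12 tested rose, 2 fell and 5 did not pass. The Gi subunits Gnai2 and Gnai3 rose by 1.37 ± 0.18 and 0.73 ± 0.15 (adjusted p = 3.5e-04 and 0.00267, limma). Gnaz rose by 0.67, Gna15 by 0.58 and Gna11 by 0.49. Gnas, the stimulatory subunit, fell by 1.44 (adjusted p = 1.3e-04), and Gnao1, known from neurons, fell by 0.71. The median log2 difference of the 12 was 0.17 with all samples and 0.19 without the injured samples 2 to 4. Without the basal samples 1 and 2, 6 rose and 2 fell. In the authors' deposited table, 3 rose and 1 fell.

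Of 13 beta and gamma subunits tested, 7 rose, 3 fell and 3 did not pass. These counts were 7 and 3 without the basal samples 1 and 2, 0 and 1 without the injured samples 2 to 4, and 3 and 2 in the authors' deposited table. Gng11 fell by 2.69 (adjusted p = 9.0e-05, limma), Gng7 by 1.22 and Gng12 by 0.75. Gng13 was not above background in any basal sample and was at least 2.21-fold higher, and Gnb4 rose by 1.59. Of 7 receptor kinases and arrestins, which switch off receptors, Arrb1 (beta-arrestin) fell by 1.86, Arr3 rose by 0.66 and 5 did not pass. Again 1 rose and 1 fell without the basal samples 1 and 2, 1 fell without the injured samples 2 to 4, and 2 fell in the authors' deposited table.

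Of 13 effectors, 5 fell, against 24.7% of all genes tested, 0 rose, against 35.4%, and 8 did not pass. Without the basal samples 1 and 2, 1 rose and 5 fell, without the injured samples 2 to 4, 3 fell, and in the authors' deposited table, 4 fell. The adenylyl cyclases Adcy7 and Adcy6 fell by 1.58 and 0.52. Adcy2 was lower by a measured difference of -3.10, with 1 of 4 injured arrays above background, and Adcy9 was at least 5.58-fold lower. The phospholipase Plcb4 fell by 0.93. Of 19 receptors, 4 rose and 9 fell, with 4 and 9 also without the basal samples 1 and 2, and 2 and 3 without the injured samples 2 to 4. In the authors' deposited table, 4 rose and 0 fell, with a median of -0.09 in place of -0.44. The alpha-adrenergic receptor Adra2a was lower, at a measured difference of -3.62 (adjusted p = 0.00167, limma) that includes 3 injured arrays at background, and the prostaglandin receptor Ptger4 was at least 7.49-fold lower. The lysophosphatidic acid receptor Lpar3, not above background in any basal sample, was at least 2.74-fold higher. The measured difference of Lpar3 was 3.31 (adjusted p = 2.3e-06, limma), set in part by basal values at background. Its relative Lpar2 rose by 2.40 and the adenosine receptor Adora2b by 3.07. The protease-activated receptor F2rl1 was called higher, at 2.36 (adjusted p = 0.0430), but was above background on 2 of 4 basal arrays, and the basal sample 2, at -0.57, lay inside the injured range of -0.61 to -0.31.

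**Figure D4:**
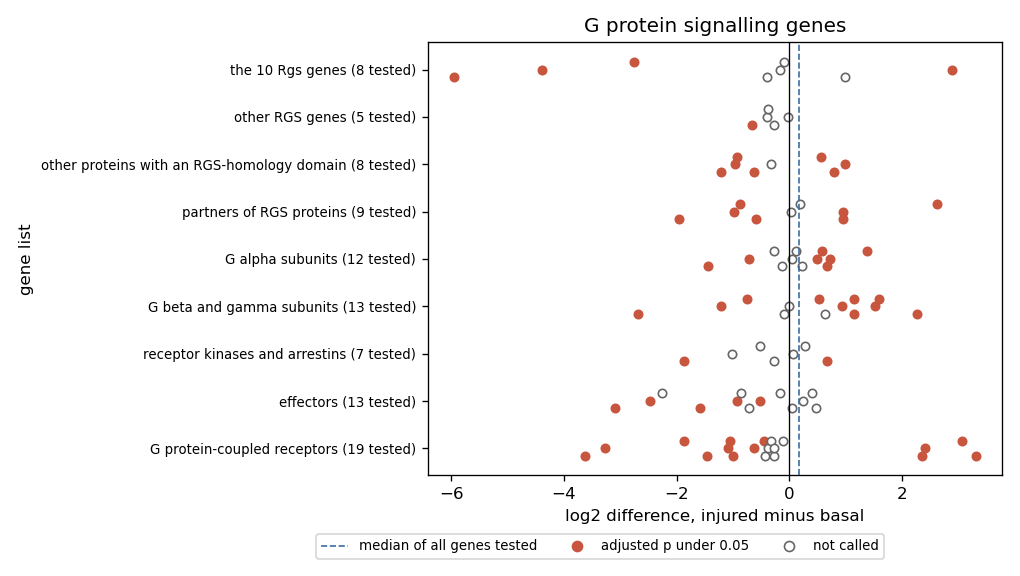
Log2 difference, injured minus basal (horizontal axis), of each tested gene in 9 lists of the G protein pathway (rows), with filled points for an adjusted p under 0.05, open points for genes not called and a dashed line at 0.17, the median of all genes tested. The lowest points, Rgs5 and Rgs4, include injured arrays at background, and no effector lies to the right of 0 as a filled point.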

How the data were processed

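Total RNA of 8 sorted samples was measured on 1-colour Agilent arrays. Deposited values are spot intensity from the scanner, background-subtracted by the authors in Agilent Feature Extraction (version 10.7.3.1, per the file headers); the submitters' processing notes also name limma. The authors' deposited table holds log2 values, a scale read from its values, and no source used here gives its other steps.

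Here, log2 processed signal minus each array's 75th percentile was used, with control spots and 1119 outlier spots left out and spots of a probe averaged. Each gene was read by its probe with the most signal and tested where at least 3 of 4 arrays of a group were above background (13457 genes). The comparison used limma (3.58.1, under R 4.3.3, files read with the data.table package, version 1.17.8), two-sided, with Benjamini-Hochberg adjustment; dimmer probes were adjusted over all probes tested. The number of arrays limits the precision. The code was tested on simulated data. The same-number correlations of deviations were 0 to 0.09, which shows no pairing but cannot exclude it. Replicate numbers were not treated as pairs.

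The members and lists were chosen with earlier results of these data known. Named genes are all members and the 4 nearest profiles of the 2 members with the largest difference. From each pathway list they are at most 3 called genes by size of difference, and every called gene of a count of 5 or fewer. Marker lists are named in part. The 3 brightest genes are named for the pericyte and immediate early lists, and other markers where they are described. The alternatives were other background corrections, scalings, filters, probe rules, gene names and variance models, the authors' table, a replicate block, each array left out, and the arrays against their labels left out together.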

Additional observations from a re-analysis of the deposited data

Results flagged for a closer look

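The dimmer Rgs4 probe in the injured group had 1 array apart from the others: the injured sample 1 read -2.91, against -4.95 to -4.65 in the other 3 samples, a gap of 0.851 of the group's range, above Dixon's 95% critical value for 4 samples. It is the only injured array on which this probe was above background. In all, 36 groups were examined in this way, and chance marks about 1 in 20.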

How the results depend on the processing

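Rgs2 and Rgs5 kept direction and call in all alternatives that gave them a value (-3.22 to -1.92 over 23 for Rgs2, -6.28 to -2.41 over 22 for Rgs5). Rgs4 and Rgs12 kept the direction and lost the call in 1 each, at -1.77 in the authors' deposited table and 2.71 without the injured replicates 2 to 4. Rgs4 and Rgs5 had no value where probes had to be above background on all arrays.

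Differences not called that changed sign were Rgs3 at 0.29, Rgs16 at 0.53 and Rgs10 at 0.74 in the authors' table, and Rgs3 at 0.04 and 0.05 without basal replicate 1 or 2 (-0.25 to 0.05 with each array left out), 0.32 without both, and 0.02 without the injured replicates 2 to 4. The cause was not tested.

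The number of members called higher was 2 with normexp and quantile normalization, the mean over a gene's probes, the authors' table, probes above background on all arrays, limma with trend and robust, and array weights, and 0 without the injured replicates 2 to 4. The number called lower was 4, with Rgs16 added, under all 4 other scalings of the scanner signal. It was also 4 with limma with trend and robust, without injured replicate 1, and without basal replicates 1 and 2. It was 2 in the authors' table and with probes above background on all arrays. With each array left out in turn, 1 to 2 members were higher and 3 to 4 lower. In the same fits 20 to 25 pathway genes were higher, 24 to 34 lower and 7124 to 8318 genes called in all. The count of 23 pathway genes called higher became 14 in the authors' table and 14 with probes above background on all arrays, and 2 without the injured replicates 2 to 4. The count of 29 lower became 10 and 9 in the authors' table and without those replicates. All genes called, 8095, became 4040 and 1734. The higher share of all calls was 58.9%, and 81.2% in the authors' table, where the median of all genes was 0.48 in place of 0.17, and 43.3% without those replicates. Columns of that table correlated with their own scanner files at a Spearman coefficient of 0.454 to 0.92 across probes. Its columns for the injured samples 2, 3 and 4 each correlated best with the scanner file of injured sample 1.

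With the replicate number as a block, 1 member was higher and 3 lower as before, and 7647 genes were called in all. Same-number correlations were 0, 0.04, 0 and 0.09, and those of unlike numbers ran from -0.09 to 0.1. They showed no pairing, but with 4 arrays per group they cannot exclude it.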
